A study of Mus musculus with 18 samples.

Results

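The regions described here are stretches of open chromatin in mouse lung endothelial cells (ECs) that carried a strong ATAC-seq peak after bleomycin in young mice, rarely in young sham mice, and in few of the aged mice given bleomycin. ATAC-seq inserts sequencing adapters into accessible DNA, so a peak marks a place where the chromatin is open. From each of the 18 lists the same number of peaks on the autosomes, X and Y was kept, taking the smallest p-values and as many peaks as the shortest list held, which was 51.5 to 100% of a list. Kept peaks sharing at least 1 bp were merged, and regions found in at least 2 lists made up 27849 consensus regions. The members were selected on the number of samples with a kept peak, namely at least 3 of 4 Young Bleo, at most 1 of 5 Young Sham and at most 2 of 5 Aged Bleo samples. These limits left 692 members, or 2.48% of all consensus regions. A further 564 regions met the limits for the young groups but had a kept peak in 3 or more Aged Bleo samples, and they are called opened at both ages. Because the presence of peaks in Young Sham, Young Bleo and Aged Bleo chose the members, their values in these groups are given as a description. Tests between these groups, where counted below, follow from that choice and are no result about the members. Aged Sham played no part in the choice.

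All mice were Col1α1-GFP transgenic FVB animals of both sexes, 2 months (Young) or 18 months (Aged) old, and the GFP reporter was carried by sham and injured mice alike. Young Bleo (n = 4) and Aged Bleo (n = 5) received about 1 U/kg bleomycin into the trachea, Young Sham (n = 5) and Aged Sham (n = 4) received the vehicle, and lungs were taken at day 30. Each list came from a single mouse, and live CD31+ cells negative for CD45, EpCAM and GFP were sorted before Omni-ATAC-seq. The sort removed cells in which the collagen reporter was active, all EC subtypes of a lung were pooled, and a single time point was taken, so fewer cells of a type with an open region and less opening per cell cannot be told apart. The promoters that mark ECs carried a kept peak for 7 to 9 of 10 genes in every sample, with a kept peak at Emcn in Young Bleo alone and none at Vwf in the aged samples. None of 17 leukocyte marker promoters, at most 1 of 12 fibroblast and at most 2 of 13 mural markers had one. These were Pdgfra in all samples but Aged Bleo 2, Myh11 in every sample and Tagln in Aged Bleo 4. Of 17 epithelial markers, 4 had one in every sample (Abca3, Etv5, Hopx and Foxj1), while Sftpc, Sftpb, Ager, Epcam and Cdh1 were at 0. For promoters that mark EC subtypes, the counts of the young groups were apart, while Aged Sham overlapped every other group, and no test was run. Within the general capillary list only Aplnr and Tek varied between samples. Of 9 general capillary markers, 8 had a kept peak in every Young Sham sample, 6 or 7 in Young Bleo, 6 to 8 in Aged Sham and 6 in Aged Bleo. Of 8 aerocyte markers, 3 or 4 had one in Young Sham, 2 in Young Bleo, 2 to 6 in Aged Sham and 1 to 5 in Aged Bleo. The part of EC subtype shares in the results was not tested.

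Most distal open regions of a cell type are enhancers or related regulatory elements, and they are bound by the transcription factors that the cell type and its signals provide. In ECs the ETS factors ERG, FLI1 and ETS1 and the SOXF factors SOX7, SOX17 and SOX18 hold the endothelial programme, AP-1 (dimers of FOS and JUN proteins) acts in many tissues after injury, and KLF2 responds to blood flow. Bleomycin breaks DNA and causes a fibrotic lung injury that partly resolves over weeks in mice, and capillary ECs of the lung fall into general capillary cells, which act as progenitors, and aerocytes, which line the surface for gas exchange.

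The sequences below are the 200 bases around the strongest summit of members at genes with a role in vessels, or with a clear pattern over samples, and they show where the letters of 4 motifs described further on lie in them. They are the plus strand of mm10 (RefSeq GRCm38 reference), written 5′ to 3′, and capitals mark the ETS core bound by ERG (CAGGAAG), the SOX letters AACAAT and ACAAAG, and the AP-1 site TGANTCA, on either strand. Capitals ATTGTT and CTTTGT are therefore the SOX letters and CTTCCTG the ETS core on the minus strand. The following members were chosen because they hold SOX letters or the ETS core without an AP-1 site.
Hspg2 chr4:137488974-137489173: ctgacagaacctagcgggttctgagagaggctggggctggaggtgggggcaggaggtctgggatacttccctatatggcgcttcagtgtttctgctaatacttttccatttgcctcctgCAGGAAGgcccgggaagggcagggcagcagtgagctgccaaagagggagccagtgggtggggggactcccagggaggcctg
Fhit chr14:10526937-10527136: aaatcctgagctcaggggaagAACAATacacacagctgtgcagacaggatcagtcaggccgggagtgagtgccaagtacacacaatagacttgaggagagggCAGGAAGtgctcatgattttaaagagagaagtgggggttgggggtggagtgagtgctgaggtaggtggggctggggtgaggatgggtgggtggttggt
Abcb1a chr5:8590401-8590600: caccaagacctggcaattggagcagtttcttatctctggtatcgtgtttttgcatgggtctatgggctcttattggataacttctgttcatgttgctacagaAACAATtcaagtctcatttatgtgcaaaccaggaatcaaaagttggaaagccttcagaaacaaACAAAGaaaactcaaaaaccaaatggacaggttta
Dll1 chr17:15373025-15373224: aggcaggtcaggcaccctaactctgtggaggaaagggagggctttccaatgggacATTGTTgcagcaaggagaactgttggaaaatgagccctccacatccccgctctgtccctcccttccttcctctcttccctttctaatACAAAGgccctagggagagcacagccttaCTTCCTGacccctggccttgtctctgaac
Actn1 chr12:80216580-80216779: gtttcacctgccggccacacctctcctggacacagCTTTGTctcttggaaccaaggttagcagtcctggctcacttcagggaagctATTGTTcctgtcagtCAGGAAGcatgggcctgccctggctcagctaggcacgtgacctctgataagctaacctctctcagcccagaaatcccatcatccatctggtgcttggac
Man1a chr10:54059276-54059475: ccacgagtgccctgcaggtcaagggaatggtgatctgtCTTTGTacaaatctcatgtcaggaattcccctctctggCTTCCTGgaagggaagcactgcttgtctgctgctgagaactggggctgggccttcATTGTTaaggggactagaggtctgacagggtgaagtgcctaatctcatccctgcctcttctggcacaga
Pparg chr6:115411545-115411744: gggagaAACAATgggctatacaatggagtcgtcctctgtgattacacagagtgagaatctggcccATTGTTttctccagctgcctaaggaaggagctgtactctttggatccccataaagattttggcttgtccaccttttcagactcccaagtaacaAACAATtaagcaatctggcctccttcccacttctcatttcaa
Col18a1 chr10:77182899-77183098: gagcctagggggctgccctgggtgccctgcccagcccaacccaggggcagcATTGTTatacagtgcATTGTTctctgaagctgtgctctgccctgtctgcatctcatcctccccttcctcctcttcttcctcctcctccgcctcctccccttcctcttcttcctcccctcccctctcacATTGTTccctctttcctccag
Fabp4 chr3:10213818-10214017: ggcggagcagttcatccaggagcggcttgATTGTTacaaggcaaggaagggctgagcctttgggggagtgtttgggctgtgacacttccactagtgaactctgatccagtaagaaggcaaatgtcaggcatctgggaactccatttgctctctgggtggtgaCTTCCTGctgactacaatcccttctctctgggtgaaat

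The next windows show the other arrangements: AP-1 sites near Klf2, AP-1 beside SOX letters in Cdh13 and near Ets1, and a GC-rich promoter window at Gabre with none of these letters.
Klf2 chr8:72310943-72311142: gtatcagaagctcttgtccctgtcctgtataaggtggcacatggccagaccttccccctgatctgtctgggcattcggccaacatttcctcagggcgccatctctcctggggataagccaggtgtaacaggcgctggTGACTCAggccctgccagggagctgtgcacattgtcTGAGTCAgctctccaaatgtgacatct
Cdh13 chr8:118444777-118444976: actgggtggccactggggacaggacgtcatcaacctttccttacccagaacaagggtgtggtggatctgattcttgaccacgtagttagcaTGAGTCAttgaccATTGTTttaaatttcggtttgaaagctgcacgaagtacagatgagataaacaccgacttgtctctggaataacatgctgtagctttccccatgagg
Ets1 chr9:32595215-32595414: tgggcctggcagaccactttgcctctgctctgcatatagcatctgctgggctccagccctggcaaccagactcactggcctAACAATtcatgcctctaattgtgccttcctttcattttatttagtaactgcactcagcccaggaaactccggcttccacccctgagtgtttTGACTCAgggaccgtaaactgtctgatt
Gabre chrX:72274791-72274990: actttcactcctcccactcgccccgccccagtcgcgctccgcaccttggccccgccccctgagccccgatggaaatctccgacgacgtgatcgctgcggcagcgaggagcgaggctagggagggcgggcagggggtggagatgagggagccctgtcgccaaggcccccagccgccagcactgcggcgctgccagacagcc

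By construction a kept peak was common at the members in Young Bleo and rare in Young Sham, and the data went against calling them open in young mice only. A kept peak lay over 92.1, 87.4, 91.8 and 61.8% of the members in Young Bleo 1 to 4, a mean of 83.3 ± 14.4% (SD, n = 4). Young Sham 1 to 5 had 5.06, 5.49, 4.91, 5.49 and 8.09%, a mean of 5.81 ± 1.30% (SD, n = 5). The young groups did not overlap. Young Bleo 4 was the lowest of its group and lacked a kept peak at 264 of the 463 members present in 3 Young Bleo samples.

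The aged samples lay below all Young Bleo samples and differed widely among themselves, and Aged Bleo 5 was inside the Young Sham range. Aged Bleo 1 and 2 had a kept peak at 59.7 and 55.9% of the members, against 11.1, 8.96 and 7.23% in Aged Bleo 3 to 5 (mean 28.6 ± 26.7%, SD, n = 5). In the Aged Sham samples, which the rule did not use, the shares were 12.7, 23.8, 12.7 and 30.8%, a mean of 20.01 ± 8.89% (SD, n = 4). When all nuclear peaks were kept and the rule applied again, this mean was 12.5%. The rule held the Young Sham and Aged Bleo shares down and left Aged Sham free, so the order of Aged Sham against them is no result. Where a sample had been left out of the choice of regions, its share was 11.3 to 18.7% in Young Sham and 19.4 to 28.4% in Aged Bleo 3 to 5, and both ranges overlapped that of Aged Sham. Over all consensus regions every sample had a kept peak at 71.4 to 74.8%, a range held narrow by keeping the same number of peaks from every list. With the full lists the share of consensus regions with a peak ran from 71.4% in Aged Bleo 4 to 97.7% in Young Bleo 3.

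**Figure D1:**
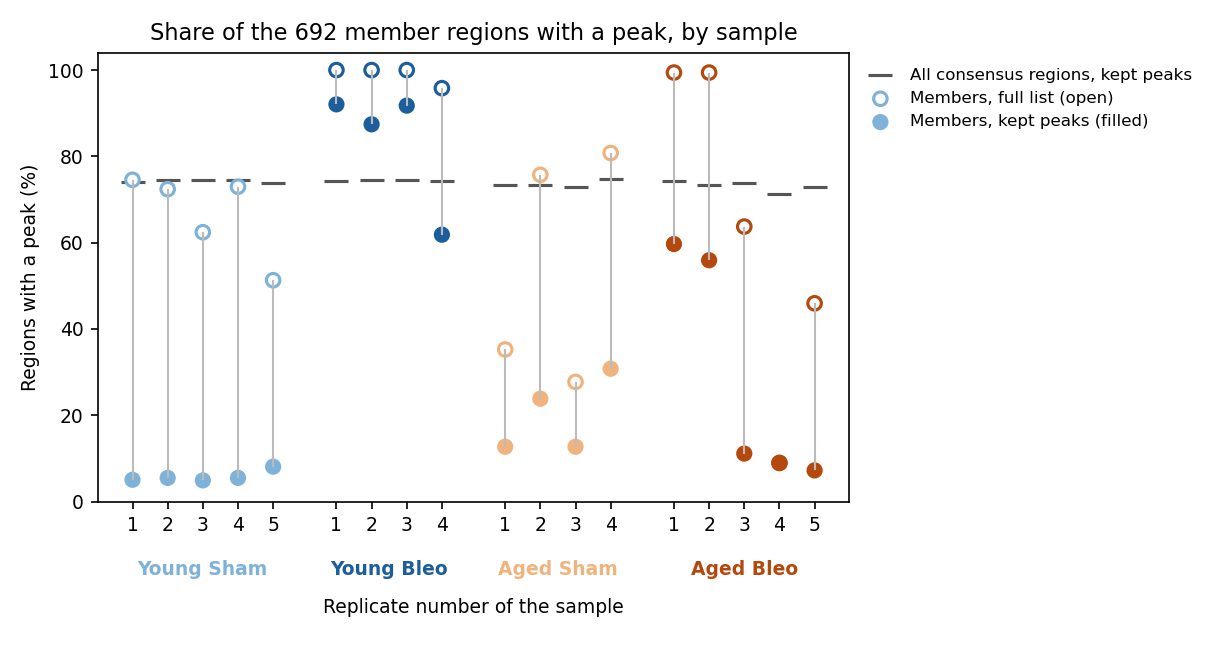
Share of the 692 members with a peak (%) in each sample, by group and replicate number on the x axis. Filled points count the kept peaks, open points the full list, and dashes give all consensus regions for the kept peaks. Aged Bleo 1 and 2 sit at 59.7 and 55.9%, the other 3 Aged Bleo samples at 7.23 to 11.1%.

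The pattern over single members followed the same split of the Aged Bleo group. Of the 692 members, 99 had no kept peak in any Aged Bleo sample, 197 had one in 1 sample and 396 in 2 samples. The pair Aged Bleo 1 and 2 alone accounted for 304 members, and 496 members had a kept peak in at least 1 of these samples. Only 155 members had one in Aged Bleo 3, 4 or 5. At least 1 Aged Sham sample carried a kept peak at 365 members, and 59 members had none in any of the aged mice.

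Within the Aged Bleo group the size of the lists moved with these shares, and its part in them was not tested. The full lists held 37595 and 40883 nuclear peaks in Aged Bleo 1 and 2 and 29049 and 26886 in Aged Bleo 3 and 5, and Aged Bleo 4 was the shortest list, which set the number of kept peaks. The Aged Sham lists held 25793 to 32220 peaks, the 2 longest having the 2 highest shares. Young Bleo lists, with 33980 to 39420 peaks, and Young Sham lists, with 30073 to 38747, overlapped in size, and the shortest Young Sham list had the highest share of its group. The sequencing lane is not in the sample labels and was taken from their file naming, which carries what looks like a lane code. If that code is the lane, lanes followed the groups: every Aged Bleo sample ran in lane 6 together with Aged Sham 4, the first 3 Young Bleo samples shared lane 7 with the other Aged Sham samples, and Young Bleo 4 ran in lane 8 with the whole Young Sham group. Within lane 8 the members had a kept peak at 61.8% in Young Bleo 4 and 4.91 to 8.09% in Young Sham, within lane 7 at 87.4 to 92.1% in Young Bleo and 12.7 to 23.8% in Aged Sham, and within lane 6 at 7.23 to 59.7% in Aged Bleo and 30.8% in Aged Sham 4. No lane so read held injured mice of both ages, so lane and age cannot be told apart for that pair. Injured and sham mice of the same age shared a lane only through Young Bleo 4 and through Aged Sham 4. Lane and injury are thus largely confounded as well, and comparisons within a lane rest on these single samples.

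Below the limit of the kept peaks most members were not empty. Counting every peak in the full lists, 95.8 to 100% of the members had a peak in Young Bleo samples, 51.3 to 74.6% in Young Sham, 27.7 to 80.8% in Aged Sham, and 99.4, 99.4, 63.7, 8.96 and 45.95% in Aged Bleo 1 to 5. Over all consensus regions these shares were 94.9 to 97.7% in Young Bleo, 90.8 to 96.6% in Young Sham and 82.7 to 94.1% in Aged Sham. In Aged Bleo 1 to 5 they were 96.6, 97.5, 90.3, 71.4 and 85.5%. A weaker peak was therefore present in sham lungs at many members, and 542 members had one in 2 or more Young Sham lists, whereas 105 had none in any Young Sham list. Every member had a peak in at least 1 full Aged Bleo list, and 504 had one in 3 or more of these lists. For these counts no share over all regions was taken. Between the young groups the difference was thus partly one of strength and partly one of presence, with the Young Sham shares at the members below those over all regions. In the shorter aged lists a weak peak could not be seen, and that of Aged Bleo 4 ended at the limit of the kept peaks.

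Strength was compared by the rank of the peak within its own list, 1 being the smallest p-value, with a missing peak placed after the last one. The median rank of the members was 17734, 17533, 17640 and 19994 in Young Bleo 1 to 4 and 29747 to 30559 in the Young Sham samples. It was 19348 and 19673 in Aged Bleo 1 and 2, so these aged mice fell within the range of the young injured ones. In Aged Bleo 3 to 5 the median member lay at 26499 or after the end of the list. For Aged Sham 4 the median was 23899, and in Aged Sham 1 and 3 it lay after the end of the list. For Aged Sham 2 it was 25815, in a list of 32220 peaks.

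**Figure D2:**
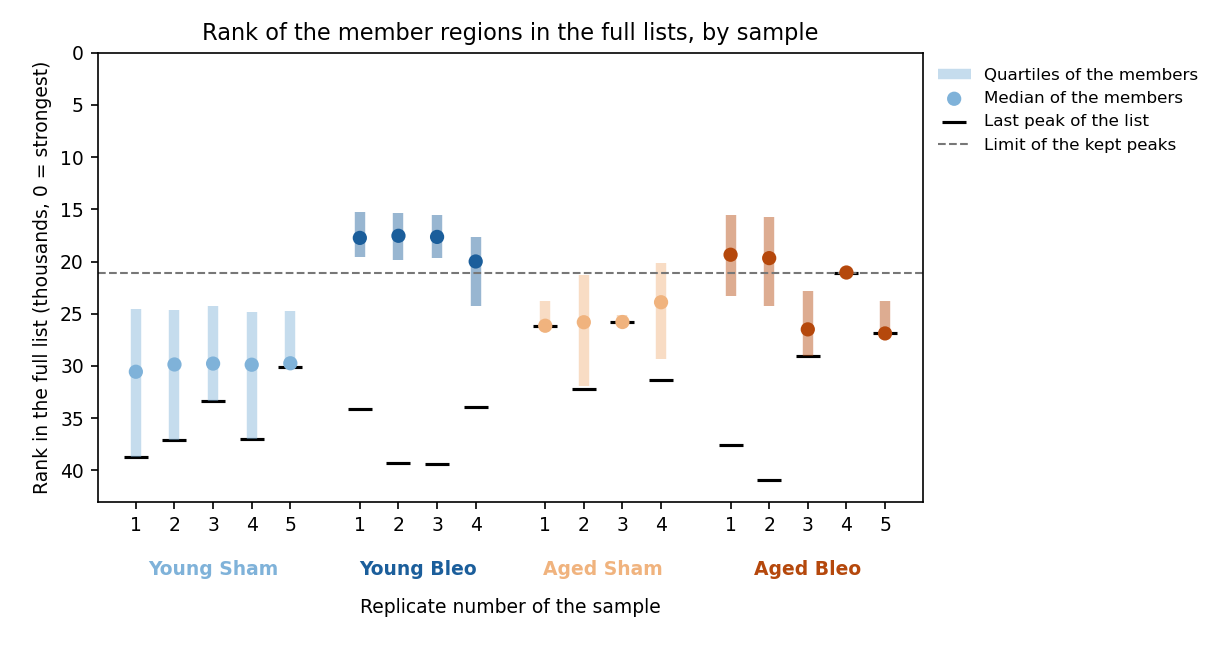
Rank of the members in the full list of each sample, divided by 1000 and with the strongest peak at the top, by group and replicate number. Points are medians, bars the quartiles, black dashes the end of each list and the broken line the limit of kept peaks; the medians of Young Bleo (17533 to 19994) and of Aged Bleo 1 and 2 (19348 and 19673) are the ones above the limit.

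Ranks were also set side by side member by member, for groups that the rule had used except Aged Sham. All 4 Young Bleo ranks were above all 5 Young Sham ranks at 388 members (56.1%), and above all 4 Aged Sham ranks at 228 (32.9%). They were above all 5 Aged Bleo ranks at only 48 members (6.94%), and above every one of the other 14 samples at 32 (4.62%). Aged Bleo 1 and 2 both ranked within or above the Young Bleo range at 399 members (57.7%), while Aged Bleo 3 to 5 all ranked below that range at 202 (29.2%). A missing peak takes the place after the last one, so in a short list it can stand above a weak Young Bleo peak of a longer list, which holds down the counts against the aged groups. These counts were taken over the members alone, with no share over all regions beside them. They are therefore a description that depends on list length.

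The members without any kept peak in Aged Bleo or Young Sham but with one in all 4 Young Bleo samples numbered 14, and the 12 with the strongest Young Bleo peaks lay at or nearest Gabre, Abcb1a, Rflna, Gm28590, Polr3b, Gm36595, Fhit, Ebf1, Prkdc, Sertad4, Ets1 and 3300002A11Rik. The Gabre region (chrX:72274576-72275129) was the promoter of a GABA-A receptor subunit gene, 0.132 kb from its transcription start. Its peak ranked 10601, 16859, 12892 and 11981 in Young Bleo 1 to 4, between 22437 and 32313 in the Young Sham samples, and 27024 and 37868 in Aged Bleo 1 and 2. No peak was listed there in any Aged Sham sample or in Aged Bleo 3 to 5, so among the listed peaks this promoter was strongest in the young injured mice, while several aged lists ended before the weaker Young Sham ranks.

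Numbers of fragments at a summit, given below for single members, are raw numbers of each library and were not scaled for depth. The smallest local background over the peaks of a list was 1.498 to 1.73 fragments in Young Bleo and 1.26 to 1.78 in Young Sham. It was 1.02 to 1.44 in Aged Sham, 1.60 in Aged Bleo 1 and 1.06 to 1.14 in Aged Bleo 2 to 5. This floor is not the background at the members, and the part of depth in differences of fragments was not tested. The median member with a kept peak held 27 to 36 fragments in Young Bleo, 34 and 38 in Aged Bleo 1 and 2 and 11 to 17 in Aged Bleo 3 to 5. Ranks within a list do not carry this scale.

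Abcb1a encodes P-glycoprotein, an efflux pump of endothelial barriers, and its member lay in an intron at chr5:8590298-8590812, which also overlaps Rundc3b. The summit held 41, 43, 40 and 22 fragments in Young Bleo 1 to 4, 23, 18 and 12 in the 3 Young Sham samples with a peak, 15 and 10 in the 2 Aged Sham samples with one, and 21 and 17 in Aged Bleo 1 and 2. In fragments Young Bleo 4 thus overlapped Young Sham 2, although not in rank (20753 and 22868), and the other young injured mice were well above both.

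An intron of Fhit, which encodes a hydrolase regarded as a tumour suppressor, held a member listed after injury alone, at chr14:10526800-10527265. No peak was listed in any of the 9 sham samples. The fragments at the summit were 26, 39, 35 and 28 in Young Bleo 1 to 4 and 23 and 16 in Aged Bleo 1 and 2, with no peak in Aged Bleo 3 to 5. The fragments of all Young Bleo samples were thus above those of Aged Bleo 1 and 2.

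Similar values were found in an intron of Ebf1, a transcription factor gene (chr11:44746752-44747100), where the summit held 26, 33, 31 and 24 fragments in Young Bleo, 18 and 23 in Aged Bleo 1 and 2, and 14 in Young Sham 4, the only sham sample with a peak. A second Ebf1 intron member (chr11:44716880-44717258) had 38, 39, 40 and 19 fragments in Young Bleo. There Aged Bleo 2 reached 36, so this region did not separate the ages. The members in introns of Prkdc, which encodes the catalytic subunit of DNA-dependent protein kinase, and of Polr3b, a subunit of RNA polymerase III, had peaks in all or nearly all Young Sham lists as well, of 13 to 19 and 11 to 19 fragments, against 23 to 36 and 24 to 51 in Young Bleo.

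Across 23 lists of genes for EC types, pathways and other cells of the lung, 41 of the 1183 regions nearest to a listed gene were members (3.47%), beside 2.48% of all regions. These shares were not matched for promoters, and outside promoters 651 of 18897 regions were members, so no excess is claimed. Regions opened at both ages were fewer than members in some lists (1 against 6 at endothelial transcription factor genes). They were equal (6 at basement membrane and matrix genes) or more (7 against 4 at guidance genes) in others. The signals that act on vessels come first. Among ligands, the nearest genes of members included Apln (apelin), Pgf (placental growth factor), Edn1 (endothelin-1), Slit2 (a guidance cue) and Bmp6. The Slit2 member lay 709 kb upstream, and another member lay in an intron of the Notch ligand gene Dll1. The Dll1 region (chr17:15372969-15373322) had a peak in every young sample, with 45, 53, 64 and 35 fragments in Young Bleo and 27 to 35 in Young Sham. In the aged samples it held 67, 52 and 25 fragments in Aged Bleo 1 to 3 and 45 and 26 in Aged Sham 2 and 4, which overlapped the young injured range.

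The Pgf member (chr12:85192522-85193089), 15.5 kb upstream, had 33, 22, 40 and 28 fragments in Young Bleo, 7 and 11 in 2 Young Sham samples, 18 in Aged Sham 4, and 21 and 27 in Aged Bleo 1 and 2. The Edn1 member lay 111 kb downstream at chr13:42412653-42413040, with 39, 35, 37 and 19 fragments in Young Bleo against 12 to 24 in 4 Young Sham samples, so that Young Bleo 4 overlapped the sham range. The Apln member, in contrast, was close to the limits of the rule: it had 25, 15, 30 and 26 fragments in Young Bleo and 14 to 21 in Young Sham, and its ranks overlapped in all 4 groups.

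Receptors with a member nearby were Aplnr (the apelin receptor of general capillary ECs), Ednrb (an endothelin receptor and aerocyte marker), Flt1 (VEGF receptor 1), Tie1, Tgfbr2, Tgfbr3, Plxna2 and Robo1. The Aplnr region lay 9.59 kb downstream at chr2:85145546-85146358. Its peak ranked 15712, 12924, 10551 and 11778 in Young Bleo 1 to 4 and 20364 to 25422 in Young Sham. It ranked 14505 and 14156 in Aged Bleo 1 and 2 and 22473 in Aged Bleo 5, with no peak in Aged Bleo 3 and 4, and 21871, 22502 and 19591 in Aged Sham 1, 2 and 4. Aged Bleo 1 and 2 thus lay within the Young Bleo range here, whereas the other aged mice had ranks near those of Young Sham or no peak. The promoter of Aplnr itself went the other way, with a kept peak in 5 of 5 Young Sham, 1 of 4 Young Bleo, 2 of 4 Aged Sham and 0 of 5 Aged Bleo samples. The promoter of Tek, the angiopoietin receptor and another general capillary marker, had the same counts.

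Tie1, an orphan receptor of the angiopoietin system, had a member 10.6 kb upstream (chr4:118500118-118500756) at which the young injured mice stood above the rest. Young Bleo 1 to 4 had 46, 45, 37 and 29 fragments and Young Sham 13 to 28. Aged Bleo 1 to 3 had 22, 24 and 14, and Aged Sham 2 to 4 had 13, 13 and 15, so the lowest Young Bleo sample was just above the highest Young Sham sample and above every aged sample with a peak. The ranks gave the same order, 11158 to 16166 in Young Bleo and 19306 or lower on the list in all others with a peak. The Flt1 intron member (chr5:147589846-147590315) did not show this, with 22, 37, 24 and 31 fragments in Young Bleo, 33 and 48 in Aged Bleo 1 and 2, and 12 to 24 in Young Sham.

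Within cells, the Smad5 member (a BMP-responsive SMAD) lay 40.7 kb upstream at chr13:56661973-56662652 and had some of the strongest Young Bleo peaks. The summit held 44, 80, 58 and 32 fragments in Young Bleo, 10 to 18 in 4 Young Sham samples, 8 and 16 in Aged Sham 2 and 4, 37 and 43 in Aged Bleo 1 and 2 and 11 and 10 in Aged Bleo 3 and 5. The Hes1 member (chr16:30053151-30053508), upstream of this Notch target gene, was as strong in Aged Bleo 2 (51 fragments) and Aged Bleo 1 (26) as in Young Bleo (22 to 27). In all, 5 of 93 regions at BMP and TGF-β genes, 3 of 63 at VEGF and angiopoietin genes, 2 of 46 at Notch genes, 4 of 67 at vasoactive genes and 4 of 132 at guidance genes were members.

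Endothelial transcription factor genes had 6 members among 156 regions, at Ets1, Klf2, Fli1 and Sox17. The region 46.9 kb upstream of Sox17 (chr1:4543981-4544510) carries the SOX letters itself. Its summit held 24, 31, 26 and 16 fragments in Young Bleo and 28 and 24 in Aged Bleo 1 and 2, against 11 in Young Sham 1 and 14 in Aged Sham 4, the only sham samples with a peak. Near Ets1, the distal member (chr9:32595101-32595695) held 45, 68, 66 and 25 fragments in Young Bleo and 62 and 72 in Aged Bleo 1 and 2, whereas the intron member (chr9:32646532-32647216) held 23, 29, 32 and 28 in Young Bleo and 19 and 23 in Aged Bleo 1 and 2.

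Both Ets1 members were weaker in Young Sham, with at most 23 and 14 fragments, although Young Bleo 4 was barely higher at the distal one. The Klf2 members lay 10.6 and 8.0 kb upstream. At the nearer one (chr8:72310872-72311250) Young Bleo had 27, 46, 43 and 17 fragments, Aged Bleo 1, 2 and 5 had 19, 37 and 11, and peaks in Young Sham were listed only in samples 4 and 5 (20 and 17). The value of Young Bleo 4 was thus within those of the sham samples at this element.

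Genes of lipid uptake and PPAR signalling had members at 3 of 20 regions, basement membrane and matrix genes at 6 of 60, and aerocyte markers at 3 of 29. The Pparg intron member (chr6:115411403-115411816) lay at the gene of the nuclear receptor that drives lipid uptake. It held 24, 33, 30 and 13 fragments in Young Bleo, 17 in Aged Sham 4 and 20, 31 and 11 in Aged Bleo 1, 2 and 5, and was not listed in any Young Sham sample. Fabp4, a fatty acid carrier of capillary ECs, had a member 5.27 kb upstream (chr3:10213648-10214116) with 44, 40, 47 and 24 fragments in Young Bleo, 12 to 18 in 3 Young Sham samples, 21 in Aged Sham 4 and 36, 46 and 12 in Aged Bleo 1 to 3. The Slc27a3 member had 35, 31, 35 and 30 fragments in Young Bleo and 36 and 55 in Aged Bleo 1 and 2.

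Hspg2 encodes perlecan, a heparan sulphate proteoglycan of the vascular basement membrane, and held 2 intron members. At chr4:137488853-137489359 no sham sample of either age had a peak, even in the full lists. The peak ranked 17620, 12170, 13086 and 13860 in Young Bleo 1 to 4, with 32, 65, 58 and 41 fragments. In Aged Bleo 1 and 2 it ranked 14398 and 15717, with 47 and 47 fragments, so these aged mice were within the young injured range. The neighbouring member (chr4:137478311-137478707) had the same presence, with 31, 44, 30 and 15 fragments in Young Bleo and 43 and 43 in Aged Bleo 1 and 2. Both elements of the perlecan gene were thus listed after injury alone, in all 4 young and in 2 of 5 aged mice.

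The Col18a1 members lay 16.5 and 40.3 kb upstream of the gene for collagen XVIII, the precursor of endostatin. The nearer one (chr10:77182792-77183351) had 36, 33, 38 and 21 fragments in Young Bleo, 11 to 14 in 4 Young Sham samples, 11 and 18 in Aged Sham 2 and 4, and 30, 43 and 10 in Aged Bleo 1, 2 and 5. Members also lay near Nid2 (nidogen-2) and in Col4a2 upstream of Col4a1 (basement membrane collagen). Near Prx, an aerocyte marker, the member had 95, 97, 89 and 69 fragments in Young Bleo and 47 to 67 in Young Sham, but 119 and 153 in Aged Bleo 1 and 2, above all young mice. The Prx promoter went the other way in the young mice, with a kept peak in 5 of 5 Young Sham and 0 of 4 Young Bleo samples, and in 3 of 4 Aged Sham and 4 of 5 Aged Bleo samples.

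Cytoskeleton and migration genes had members at 4 of 114 regions. The Actn1 intron member (chr12:80216479-80216896; α-actinin-1) held 27, 26, 33 and 17 fragments in Young Bleo, 11 to 22 in Young Sham, 16, 15 and 17 in Aged Sham 1, 2 and 4 and 16, 17 and 14 in Aged Bleo 1 to 3, so that Young Bleo 1 to 3 were above all other samples with a peak in fragments. In rank, Aged Sham 1 (17438) fell among them (17206 to 19209). The Cdh13 intron member (chr8:118444672-118445153; T-cadherin) was not listed in Young Sham and held 30, 31, 36 and 17 fragments in Young Bleo against 23, 19 and 11 in Aged Bleo 1 to 3 and 13 in Aged Sham 2. Members were also found at Palld and Evl, which encode actin-binding proteins.

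Single members lay near Jam2 (1 of 61 junction gene regions), Apcdd1 (1 of 58 Wnt regions) and in Nfkb1 (1 of 71 inflammation regions), and the Aplnr, Sox17 and Tie1 regions were also the only members among 49 general capillary, 58 arterial, venous and lymphatic and 55 pan-endothelial marker regions. No member lay nearest to a cell cycle gene (41 regions), an AP-1 or other immediate early gene (51) or a gene of FGF and PDGF signalling (48). None was found at fibroblast (8 regions), mural (7), epithelial (13) or leukocyte markers (5). Since 2.48% of all regions were members, lists of these sizes would hold few members or none at that share. The lists without a member are therefore no result about the members.

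**Figure D3:**
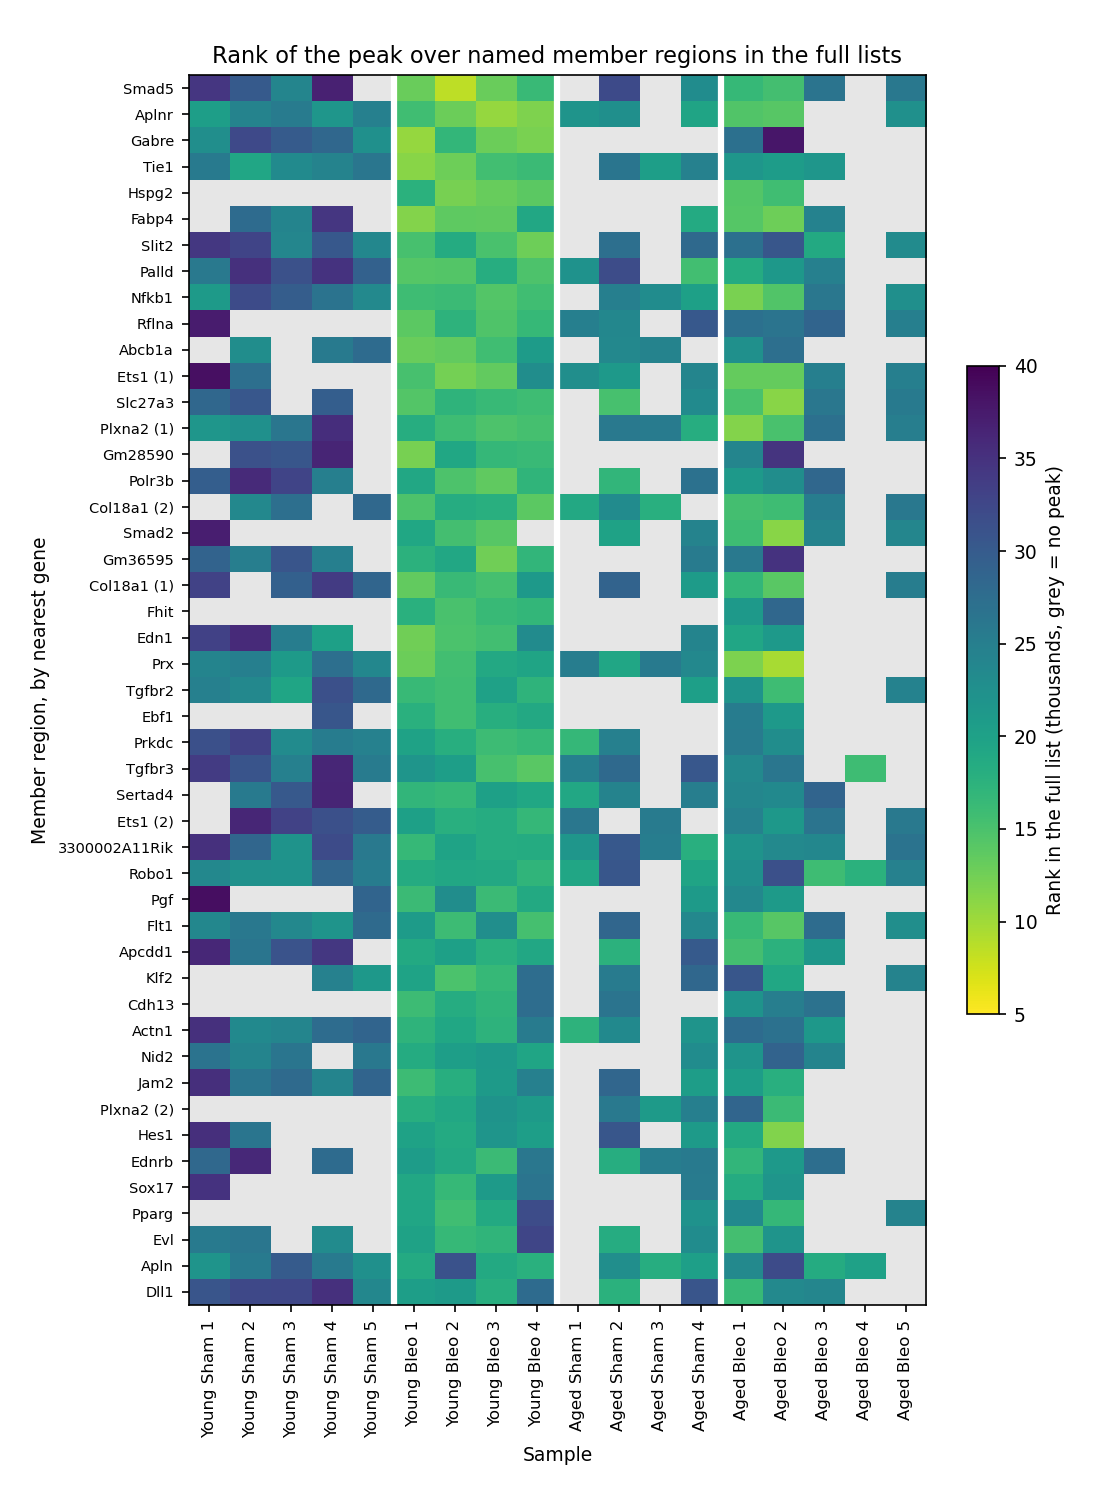
Rank of the peak in the full list of each sample (colour, divided by 1000, yellow strongest, grey no peak) for members named by the rule, one row per region by nearest gene, with white lines between the groups. Hspg2 is listed in Young Bleo and in Aged Bleo 1 and 2 and in no sham sample, while Aplnr and Tie1 are listed in every young sample.

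Several genes had more than one member. The 692 members had 643 nearest genes, of which 45 had at least 2 members and 4 had at least 3, namely Man1a, Anxa1, Gm20755 and Gm41062. The 3 introns of Man1a, which encodes a Golgi mannosidase that trims N-glycans, spanned chr10:53979890-54068991. The middle one (chr10:54059110-54059603) was among the strongest members, with 50, 53, 50 and 39 fragments in Young Bleo, 10 to 20 in 3 Young Sham samples, 10, 21, 9 and 21 in Aged Sham 1 to 4, and 38, 47, 13 and 12 in Aged Bleo 1, 2, 3 and 5. The member nearest the start (chr10:54068613-54068991) was not listed in Young Sham and held 30, 39, 44 and 22 fragments in Young Bleo, 16 in Aged Sham 4 and 23 and 27 in Aged Bleo 1 and 2.

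Anxa1, the gene of annexin A1, a mediator that limits inflammation, had members at its promoter and 28.3 and 44.9 kb downstream. These were weak examples, since the promoter (chr19:20390452-20390919) held 25, 26, 31 and 32 fragments in Young Bleo, 12 to 24 in Young Sham, 12 to 27 in Aged Sham and 29 and 33 in Aged Bleo 1 and 2. Of all members, 110 (15.9%) lay within 100 kb of another one with no gap larger than that, in 50 runs. The runs with the most members and the shortest span were at Gm41062 (34706 bp on chromosome 13), Gm17769 and Fam207a (35097 bp on chromosome 10) and Anxa1 (45407 bp on chromosome 19).

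Members were distal. Of the 692, 351 were intergenic (50.7%), 277 intronic (40.03%), 15 in a UTR (2.17%), 8 in another exon (1.16%) and 41 in a promoter, taken as 1000 bp before to 100 bp after a RefSeq transcription start. The promoter share was 5.92% (95% Wilson interval 4.397 to 7.94%), beside 6.91% (5.10 to 9.31%) of regions opened at both ages and 32.1% (31.6 to 32.7%) of all regions. Members and regions opened at both ages were thus alike in this respect and both far from the mean of all regions. Their median distance to the nearest start was 28252 and 24407 bp, against 6089 bp for all regions, and 73.4% of the members were more than 10 kb away.

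The 41 promoters included those of Procr (the endothelial protein C receptor, which limits coagulation), Cd59a (a complement inhibitor), Timp1 (an inhibitor of matrix metalloproteinases), Col16a1, Hspb8, Irx3 and Sox6. The Procr promoter had a kept peak in 3 Young Bleo, 1 Young Sham, 2 Aged Sham and 2 Aged Bleo samples, and the Sox6 promoter in 3 Young Bleo samples and no other. These examples were chosen after their values were seen. Chromosomes ranged from 1.04% of regions being members on chromosome 17 to 3.79% on chromosome 1, leaving out Y with 1 member in 24 regions.

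Sequence around the summits was searched for 19 motifs fixed in a list and 1 added after the windows had been read, on both strands of the 200 bp window. Intervals for these shares cover counting error only, and a match is a description of the letters. The SOX letters AACAAT, the added motif, were found in 29.9% of the members, 22.3% of regions opened at both ages and 11.2% of all regions. Since this motif was added after the windows had been read, its excess at the members may in part restate what prompted it. The other SOX letters, ACAAAG, were found in 27.2, 19.1 and 14.8%. Either form was present in 334 members (48.3%), against 38.7 and 23.6%, and both in 61 members (8.82%), against 2.84 and 2.32%. The windows at Dll1, Actn1, Abcb1a and Man1a printed above are examples with both forms.

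Other motifs differed in either direction. The AP-1 site TGANTCA was found in 14.3% of the members, 21.8% of the regions opened at both ages and 7.89% of all regions. The ETS core CAGGAAG was found in 23.4, 25.5 and 19.2%, the NF1 letters TTGGCA in 22.1, 19.3 and 13.3%, and the KLF and SP letters GGGCGG in 10.3, 15.4 and 35.4%. The ETS core thus did not set the members apart from the regions opened at both ages. Rarer motifs went either way. The IRF motif was found in 4.62% (3.29 to 6.46%), against 2.30% (1.35 to 3.90%) and 2.56%, the MEF2 core in 4.91% (3.54 to 6.79%), against 3.01% (1.89 to 4.77%) and 2.59%, and the C/EBP letters TTGCNNAA in 9.39% (7.44 to 11.8%), against 6.56% (4.80 to 8.91%) and 5.92%. The forkhead letters TGTTTAC were found in 2.60%, against 3.72 and 4.13%, the NF-κB motif in 3.18%, against 5.50 and 4.53%, and the STAT letters TTCCNGGAA in 2.02%, against 3.37 and 1.52%. For these 6 the intervals of the members overlapped those of the regions opened at both ages.

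Because members are distal and lower in GC (median 49% of the window, against 51% and 56%), the shares were also taken outside promoters and at matched GC. Outside promoters, AACAAT was found in 31.2% of the members (27.7 to 34.8%), 23.8% of the regions opened at both ages and 15.1% of all regions, and CAGGAAG in 23.3, 26.5 and 23.7%. With GC between 45 and 54% as well, AACAAT was in 31.0% of 348 members (26.4 to 36.1%), 27.9% of 276 regions opened at both ages (22.9 to 33.5%) and 18.3% of 8345 regions in all (17.5 to 19.1%). For ACAAAG the values were 26.1% (21.8 to 31.0%), 20.7% and 22.3% (21.4 to 23.2%), so that the excess of this form over all regions was within the interval of the members. AP-1 remained at 16.7, 23.9 and 11.9%, and CAGGAAG at 27.0, 28.3 and 27.4%.

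The AACAAT share of the members was also above that of regions of like strength, with the same limit that the motif was added after the windows had been read. Among regions outside promoters with a mean Young Bleo rank between 16058 and 18577, the quartiles of the members, AACAAT was found in 31.9% of 323 members (27.0 to 37.2%) and 15.3% of 3572 other regions (14.1 to 16.5%). ACAAAG was found in 28.5 and 19.7%, AP-1 in 13.9 and 10.1%, CAGGAAG in 24.1 and 23.6%, and the NF1 letters in 23.2 and 16.9%.

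The letters also varied with the number of Aged Bleo samples that had a kept peak, taken over all 1256 regions that met the limits for the young groups. Outside promoters, AP-1 was found in 5.49% of the 91 regions with no Aged Bleo sample, in 14.1, 17.6, 17.9 and 28.1% of those with 1 to 4, and in 27.2% of the 81 with all 5. AACAAT was found in 35.2, 28.1, 31.7, 25.3, 25.7 and 14.8% for 0 to 5 samples. ACAAAG, which did not follow this order, was found in 26.4, 23.8, 30.4, 19.8, 21.6 and 18.5%. The regions with a kept peak in the fewest Aged Bleo samples thus had the lowest AP-1 share and a high AACAAT share. The AP-1 interval at 0 samples (2.37 to 12.2%) overlapped that at 1 sample (9.77 to 19.8%). For AACAAT the interval at 0 samples (26.1 to 45.4%) overlapped those at 1 to 4, the last being 19.8 to 32.8%. It lay above the interval at 5 samples (8.68 to 24.1%). These shares were not matched for GC. The mean share of Aged Sham samples with a kept peak, a measure outside the rule, was 14.6, 17.9, 22.4, 38.1, 53.98 and 66.1% in the same order.

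**Figure D4:**
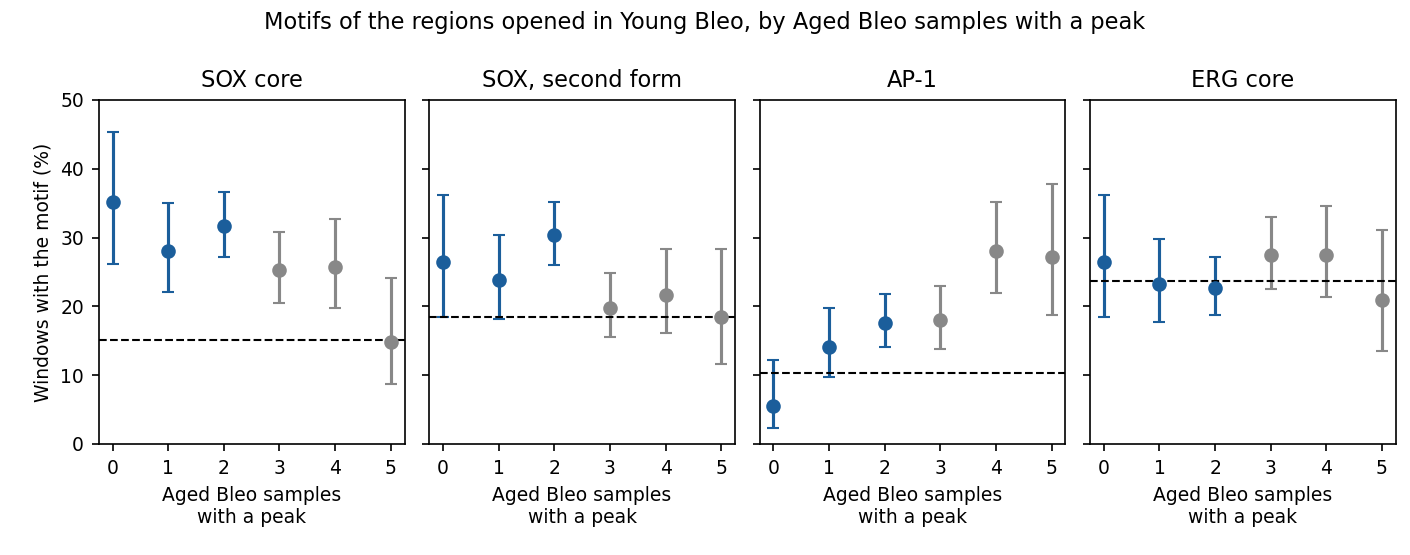
Share of windows outside promoters (%) with the SOX letters AACAAT (first panel), the SOX letters ACAAAG (the other SOX panel), AP-1 and the ETS core bound by ERG, by the number of Aged Bleo samples with a kept peak; blue points are members, grey points regions opened at both ages, bars 95% Wilson intervals and broken lines all regions outside promoters. AP-1 goes from 5.49% at 0 samples to 27.2% at 5, and AACAAT from 35.2 to 14.8%.

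The regions were also chosen again without each sample of the 3 groups of the rule, with the same numeric limits. The share was then taken in the sample left out. The regions chosen without a Young Bleo sample required the other 3, and had a kept peak in the one left out at 80.6, 72.5, 80.1 and 46.5% for Young Bleo 1 to 4 (mean 69.9 ± 16.1%, SD, n = 4). Over all regions of the same choices the share in these samples was 74.1 to 74.4%, so 2 of the 4 were above and 2 below the level of any region. For the Young Sham samples left out the share was 11.3 to 18.7% (14.4 ± 2.67%, SD, n = 5). All 4 Young Bleo samples were above all 5 Young Sham samples in these shares. For each Young Bleo sample left out, the regions with a kept peak numbered 229, the number of members with all 4 Young Bleo samples. The shares thus restate counts behind the rule and are a description only. For Aged Bleo 1 to 5 the share was 70.6, 67.5, 28.4, 19.4 and 20.4% (41.3 ± 25.6%, SD, n = 5). Aged Bleo 1 and 2 were within the Young Bleo range, and Aged Bleo 3 to 5 below it. These choices were not equally strict, since all 3 remaining Young Bleo samples were required and at most 2 of the remaining 4 Aged Bleo samples allowed. The order of the groups in these shares is therefore no result.

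**Figure D5:**
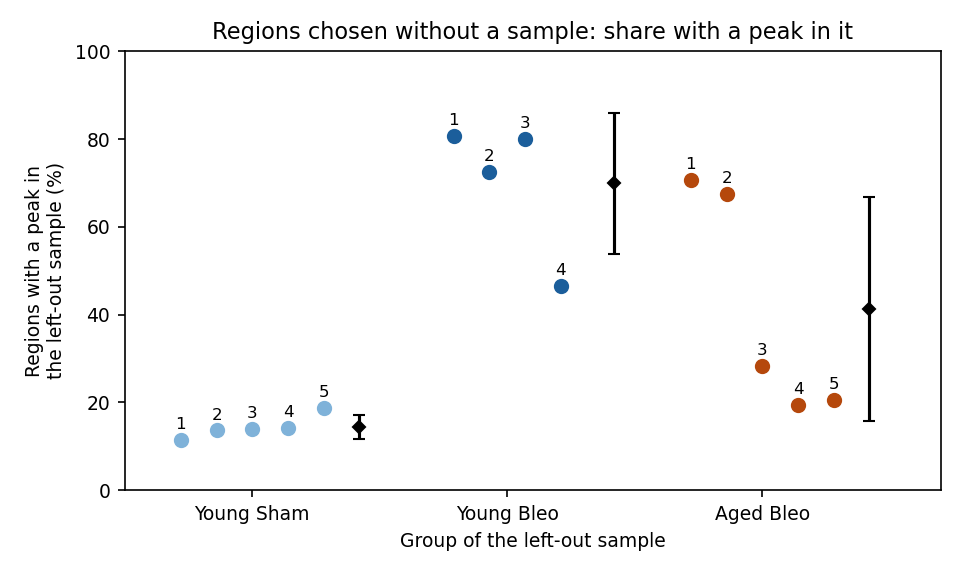
Share of regions with a kept peak (%) in the sample left out of their choice, by group, with replicate numbers above the points; black diamonds and bars are the mean ± SD of the group. Aged Bleo 1 and 2 (70.6 and 67.5%) lie above Young Bleo 4 (46.5%), and the Young Sham samples lie at 11.3 to 18.7%. The choices were not equally strict for the groups.

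The number of samples with a kept peak was compared between groups with Fisher's exact test, two-sided, for each of the 27849 regions, calling p of at most 0.05. Young Bleo exceeded Young Sham at 565 members, and at 3.66% of all regions, a contrast that the rule had used. Aged Bleo was below Young Bleo at 149 members, beside 1.05% of all regions, which the rule had used as well. Both counts follow from how the members were chosen and are no result about them. Only 6 members (0.867%) were lower in Aged Bleo than in Aged Sham, beside 0.937% of all regions. None were higher, against 0.542% of all regions, but with at most 2 Aged Bleo samples allowed no member could have been. The balance over all regions turned with the peaks kept, from 151 higher and 261 lower in Aged Bleo to 225 higher and 194 lower with all nuclear peaks. Aged Sham exceeded Young Sham at 16 members (2.31%), beside 1.36% of all regions, where the rule had fixed the Young Sham side and so allowed no lower call.

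None of these calls passed the Benjamini-Hochberg adjustment of Fisher's exact test. The smallest p the group sizes gave was 0.00794, and the smallest adjusted p was 0.382 for Young Bleo against Young Sham and 1 in the other comparisons. Over all regions 1906, 485, 412 and 813 were called without adjustment, in the order Young Bleo against Young Sham, Aged Bleo against Young Bleo, Aged Bleo against Aged Sham and Aged Sham against Young Sham. When limma was fitted to rank scores instead, 3457, 33, 27 and 583 regions passed the adjustment. With the replicate number as a block, although the numbers were not taken as pairs, 951, 0, 0 and 0 passed. The comparisons share their control samples, and no single member is called changed here on the strength of a test.

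Membership depended on where the lists were cut. The members' mean Young Bleo rank had a median of 17516, with quartiles of 16058 and 18577, so they lay towards the end of the kept peaks, whereas the median over all regions was 12439. Keeping 15000 peaks per list gave 423 regions by the same rule, of which 58 overlapped a member, and keeping all nuclear peaks gave 1988, of which 92 did. Ordering peaks by fold enrichment gave 692 again, 399 of them overlapping a member.

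Many regions lay just outside the limits. Members with 3 Young Bleo samples numbered 463, and 763 regions had 2 and met the other limits. There were 201 members with 1 Young Sham sample and 174 regions with 2, and 396 members with 2 Aged Bleo samples and 292 regions with 3. The strongest members just inside were near Trim56, Msra and Eya3 (3 Young Bleo samples), Eya3, Gm5535 and Aplnr (1 Young Sham sample), and Adamts18, Trim56 and Rassf9 (2 Aged Bleo samples). Just outside lay Tubb6, Gm9949 and Btg1, then Ptma-ps2, Bsn and Fbln2, then Lrrc4c, 1700022A22Rik and Rsu1.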

How the data were processed

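Omni-ATAC-seq peak lists of 18 samples were analysed as deposited. According to the study's methods, the authors aligned read pairs to mm10 with BWA, removed duplicates, and called peaks with MACS2 (FDR of 1%). The deposited lists are separate for each sample. Each deposited list gives a fold enrichment over local background, which is a ratio, the −log10 of the p-value and of the q-value, and a score made from them by the authors. It holds no read counts, so the differential binding test of the study could not be repeated here, and sequencing depth is not given. Fragments at a summit were solved from the deposited fold enrichment and p-value, and came out whole within 0.001 of the −log10 p for at least 99.989% of peaks with a −log10 p of at most 250.

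The 19 mitochondrial peaks in 5 lists were left out. Peaks were ranked by p-value, as many as the shortest list held were kept from each list, and peaks sharing 1 bp were merged. Regions were assigned to RefSeq transcripts of GRCm38, whose chromosome lengths fit the lists, and windows of 200 bp were centred on the strongest summit. Group differences were tested for each region with Fisher's exact test in scipy 1.17.1 with Benjamini-Hochberg adjustment, and with limma 3.58.1 in R 4.3.3 on rank scores as an alternative. Each procedure was run on simulated data in which the samples were independent. For limma the simulated noise was normal, whereas the real rank scores give every missing peak the same value. The simulation therefore does not vouch for the limma counts on these lists. Python 3.11.15, pandas 2.3.3, numpy 2.4.6, pysam 0.24.0, samtools 1.23.1 and matplotlib 3.10.9 were used.

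The members and gene lists were chosen with earlier results of these data known. Members named in the text are the 12 strongest with all 4 Young Bleo, no Young Sham and the fewest Aged Bleo samples, up to 4 for each gene list, genes with 3 or more members, the 3 leading runs and 3 regions on either side of each limit. The second Hspg2, Ebf1 and Klf2 members and the examples of promoters were added after their values were seen. Alternatives were the number of kept peaks, the order of peaks, the number of lists, the merging, the promoter and window definitions, leaving out each sample, and the test. Sequencing lanes were read from the names of the lists. RNA-seq and other experiments of the study were not analysed here.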

Additional observations from a re-analysis of the deposited data

Results flagged for a closer look

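In 6 measures over the 4 groups, 23 groups of samples were examined for a sample that stood apart by Dixon's ratio at the 95% level, and 7 of these examinations found one, in 5 different samples. Chance sets apart about 1 in 20 groups. The member shares and ranks in Young Sham, Young Bleo and Aged Bleo rest on values the rule had used, so a sample apart in them is a description. Young Bleo 4 had the lowest share of members with a kept peak, 61.8% against 87.4 to 92.1% in the other 3 Young Bleo samples. It also had the lowest share in the full list, 95.8% against the ceiling of 100%, and the weakest median rank, 19993.5 against 17533 to 17733.5. Among Young Sham samples, number 5 had the highest share with a kept peak, 8.09% against 4.91 to 5.49%, and number 1 the weakest median rank, 30558.5 against 29746.5 to 29885. Aged Sham 4 had the strongest median rank of its group, 23899 against 25794 to 26149. Aged Bleo 1 had a higher value for the smallest background over the peaks of a list, 1.60 fragments against 1.06 to 1.14 in the other 4 Aged Bleo samples.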

How the results depend on the processing

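The lists give no depth, and the shortest sets the number of kept peaks. Keeping 15000 peaks gave 423 members, 10.2% in promoters and 18.0% with AP-1, and all nuclear peaks gave 1988, with a mean Aged Sham share of 12.5% in place of 20.01%, 22.8% with ACAAAG and 26.0% with AACAAT. Promoters held 3.90% when peaks were ordered by fold enrichment and 10.8% when extended to 2 kb either side. Searching whole regions raised AP-1 to 23.8%, the ETS core to 36.8%, ACAAAG to 48.4% and AACAAT to 42.9%. Requiring 3 lists, 500 bp windows around summits, 50% cover or autosomes alone gave 692, 695, 895 and 669 members. Without Aged Bleo 1 and 2, at most 1 of the other 3 being allowed, a choice made after seeing the data, 888 regions qualified, with AP-1 in 16.8% and AACAAT in 29.1%. The alternatives for the SOX letters were added after seeing the data as well.

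Leaving out each of the 18 samples in turn gave 284 (without Young Bleo 1) to 950 members (without Aged Bleo 1), 316 without Young Bleo 2 and 286 without Young Bleo 3. Their promoter share was 5.48 to 8.80%, the mean Aged Sham share 16.4 to 24.8%, AP-1 13.6 to 16.8%, the ETS core 22.4 to 25.9%, ACAAAG 24.4 to 32.7% and AACAAT 27.5 to 34.1%. Regions called by Fisher's exact test then ranged from 653 to 1079 for Young Bleo against Young Sham, 93 to 145 for Aged Bleo against Young Bleo, 65 to 119 for Aged Bleo against Aged Sham and 164 to 258 for Aged Sham against Young Sham, fewer in part because smaller groups allow fewer p of at most 0.05. With 15000 peaks the first 2 comparisons gave 1212 and 322. With all nuclear peaks Young Bleo against Young Sham gave 2813 calls (1885 higher, 928 lower, in place of 1018 and 888), Aged Bleo against Aged Sham 419 (225 higher, 194 lower, in place of 151 and 261), Aged Bleo against Young Bleo gave 1215 (58 higher, 1157 lower, in place of 192 and 293) and Aged Sham against Young Sham 2446 (125 higher, 2321 lower, in place of 378 and 435), so the shares of all regions given beside the members depend on this choice, and the cause was not tested. With limma on rank scores the 4 comparisons gave 7763, 2828, 4099 and 4910 calls without adjustment. With the replicate number as a block they gave 6848, 2983, 3345 and 4266, of which 951, 0, 0 and 0 passed the adjustment. The numbers were not taken as pairs, since in no comparison did every same-numbered pair correlate over 0.1, although 3 of 4 did for Aged Bleo and Young Bleo: deviations correlated at −0.0609 to 0.0118 for Young Bleo and Young Sham, 0.00824 to 0.347 for Aged Bleo and Young Bleo, −0.203 to 0.291 for Aged Bleo and Aged Sham and −0.0207 to 0.0339 for Aged Sham and Young Sham.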
